A study of Rattus norvegicus with 2 samples.

Results

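The genes described here encode the enzymes that split glucose to pyruvate, exchange pyruvate with lactate, and burn it in the citric acid cycle. They were 41 genes chosen by name: 18 of glycolysis and lactate dehydrogenase, 4 subunits of pyruvate dehydrogenase, 4 of its kinases, 14 of the citric acid cycle, and pyruvate carboxylase. For each, the probe with the highest mean signal was used, out of 39500 genes and unnamed transcripts on the array. All 41 were on the array and all 41 were well above background in both samples. RNA came from the hypothalamus of rats of the spontaneously hypertensive strain (SHR), inbred animals whose blood pressure climbs as they mature, at 9 weeks of age with food and water freely available. Per sex, 100 ng of RNA from each of 5 rats went into 1 pool, and each pool was read on 1 single-colour Agilent array. Both pools share strain, age, region, killing by ether and decapitation, and dissector, and no other strain was measured. With 1 array per sex no test was possible, the spread between rats is unknown, and every difference describes these 2 pools only.

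As background, glycolysis runs in the cytosol and begins with hexokinase and phosphofructokinase, which commit glucose to breakdown. Pyruvate dehydrogenase, which its kinases switch off, passes pyruvate into the mitochondrial citric acid cycle. In brain, astrocytes are thought to release lactate that neurons can take up and oxidise.

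Signals are given as a percentage of the array's own 75th percentile over rat transcript spots, which was 2098 units for males and 2148 units for females. The local background had a median of 33 units on either array. Differences are male minus female log2 of these scaled signals, so a negative value is lower in the male pool. The only measured error is technical, from probes printed on 8 or more spots. This technical SD adds the median variance between spots within the male array to that within the female array, and takes the root. For 1 spot it was 0.063 above the 75th percentile, 0.075 at log2 signals of -2 to 0, and 0.11 at -4 to -2. Near the background it widened to 0.17 at -6 to -4 and to 0.39 below -6, the last from 11 probes. It covers printing and scanning, not animals or labelling. It does not pair spots between the arrays, so it can be wider than the spread of paired spot differences. For the 6 genes whose brightest probe is on 8 or more spots, that spread ran from 0.016 (Eno1) to 0.044 (Eno2), below 0.063. Different probes bind their targets to different degrees, so no level is set against another gene's. Of the 20 hypothalamic marker genes checked, 18 were well above background in both pools, among them those for vasopressin (Avp), oxytocin (Oxt), orexin (Hcrt) and melanin-concentrating hormone (Pmch). The exceptions were Otp and Rax.

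Carbohydrate breakdown genes were close between the sexes, and most lay slightly lower in the male pool. Of the 41 genes, 33 were lower and 8 higher in males, and the median difference was -0.041. Among all 24134 genes and transcripts well above background in both pools, 54.9% were lower in males and 45.1% higher, with a median of -0.016. None of the 41 was 2-fold apart, against 4.23% of all genes measured on at least 1 array (2.58% higher and 1.65% lower in males) and 0.0627% of those with a mean signal above the 75th percentile. Pdk4 was at least 1.2-fold higher in males, as were 9.15% of all genes, and none of the 41 was that much lower, as were 8.12%. In either direction 17.3% of all genes passed 1.2-fold, but only 0.753% of those above the 75th percentile, where 29 of the 41 lie. Of those 29, 26 were lower in the male pool, against 56.7% of the 4784 genes in that range.

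Signals summed over the 41 genes came to 21034% (male) and 21572% (female) of the 75th percentile. For 18 glycolysis and lactate genes the sums were 15986% (male) and 16387% (female). For the 14 citric acid cycle genes they were 4092% (male) and 4195% (female). All 3 sums are thus slightly higher in the female pool. Bright probes weigh most in them, as Pgk1 (3094% male, 3022% female), Ldha (2089% and 2175%) and Gapdh (2085% and 2190%) do. Because probes differ in binding, the sums are not totals of transcript.

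**Figure D1:**
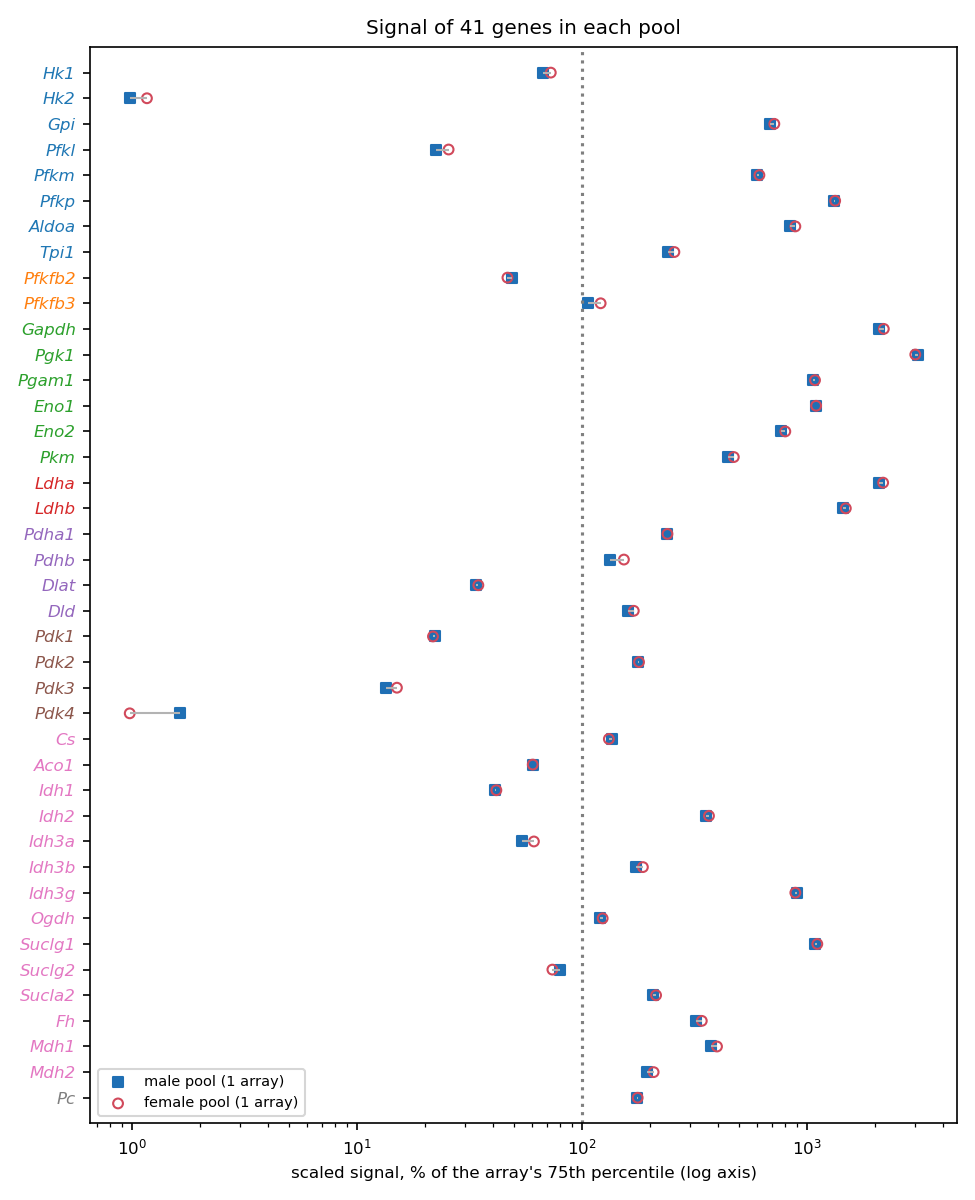
Scaled signal of each of the 41 genes (log axis, % of the array's 75th percentile, dotted line at 100) in the male pool (squares) and the female pool (circles), 1 array each, with gene names coloured by role. The paired symbols nearly coincide for most genes, and the widest gap is at Pdk4, at 1.63% and 0.975%.

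Differences were set against genes of similar brightness, because the median over all genes drifts with signal. Within signal bins 0.5 wide on the log2 scale, 29 of the 41 lay below the median of the genes in their bin and 12 at or above it. Pdhb and Pfkfb3 lay below the 5th percentile of their bins, and Pdk4 lay above the 95th. By construction about 5% of all genes lie beyond each mark. The 2 of 41 below and 1 of 41 above are no more than that share. All the others were inside the central range. Counted in technical SDs, 6 genes were lower in the male pool by over 2 SD and none was higher by that much. These 6 were Pfkfb3, Eno2, Pkm, Ldhb, Pdhb and Idh3a. Among all genes measured in both pools, 8.15% were lower and 7.9% higher by over 2 technical SD, and among those above the 75th percentile 11.4% and 8.86%. A gene printed on many spots has a smaller technical SD, so it passes this mark at a smaller difference, as Eno2, Pkm and Ldhb did.

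**Figure D2:**
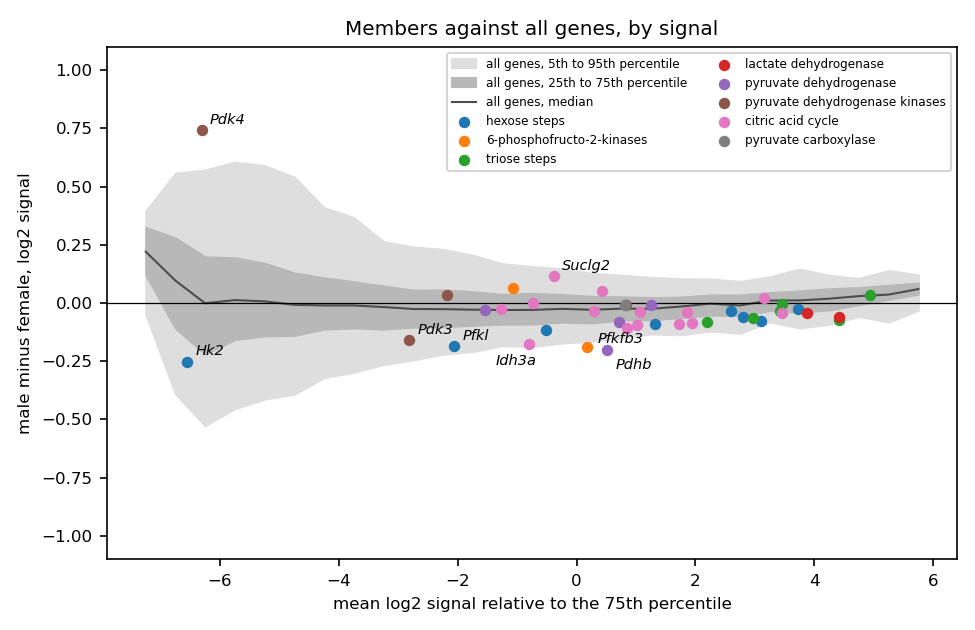
Male minus female log2 signal against mean log2 signal relative to the 75th percentile, with the 41 genes coloured by role over the median and percentile bands of all genes measured in both pools. Most of the 41 sit just below the median line, with Pdhb and Pfkfb3 under the outer band and Pdk4 above it.

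Upstream sequence is shown for Pdk4, Pdhb and Pfkfb3, the genes farthest from others of like signal, and for Ldha, a textbook target of the hypoxia-inducible factor. Each is the 250 bases before the annotated start, 5′ to 3′ on the gene's strand, from RefSeq on build GRCr8. Capitals mark every match, on either strand, to the core of the hypoxia response element (ACGTG), a forkhead box O motif (TGTTTAC) or the cAMP response element (TGACGTCA). The palindrome CACGTG holds the hypoxia core on both strands, and TGACGTCA shares letters with that core without containing it. The windows are chr4:34568330-34568579 (minus strand) for Pdk4, chr15:19182539-19182788 (plus) for Pdhb, chr17:71944683-71944932 (plus) for Pfkfb3 and chr1:106507842-106508091 (plus) for Ldha.
Pdk4: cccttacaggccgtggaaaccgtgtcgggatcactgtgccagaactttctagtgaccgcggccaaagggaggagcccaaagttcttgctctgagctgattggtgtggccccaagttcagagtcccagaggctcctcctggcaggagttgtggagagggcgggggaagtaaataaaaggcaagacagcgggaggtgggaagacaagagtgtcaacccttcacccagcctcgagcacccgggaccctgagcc
Pdhb: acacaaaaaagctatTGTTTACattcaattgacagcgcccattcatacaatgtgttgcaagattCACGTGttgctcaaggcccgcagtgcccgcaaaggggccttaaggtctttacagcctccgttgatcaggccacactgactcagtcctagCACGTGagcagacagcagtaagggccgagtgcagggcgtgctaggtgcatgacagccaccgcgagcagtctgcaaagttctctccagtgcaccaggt
Pfkfb3: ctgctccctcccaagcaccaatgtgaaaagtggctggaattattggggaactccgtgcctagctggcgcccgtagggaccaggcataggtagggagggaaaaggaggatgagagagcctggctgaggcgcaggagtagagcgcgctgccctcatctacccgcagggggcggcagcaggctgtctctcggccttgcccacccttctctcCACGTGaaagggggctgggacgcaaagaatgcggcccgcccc
Ldha: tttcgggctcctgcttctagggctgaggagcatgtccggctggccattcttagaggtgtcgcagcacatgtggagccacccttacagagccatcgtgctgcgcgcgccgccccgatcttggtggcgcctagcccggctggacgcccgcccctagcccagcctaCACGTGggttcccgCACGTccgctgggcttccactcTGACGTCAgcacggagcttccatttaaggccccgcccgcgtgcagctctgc
The Pdhb window holds CACGTG at 186 and at 97 bases before the start, and the forkhead motif at 235. In the Pfkfb3 window CACGTG begins 42 bases before the start. Ldha has CACGTG at 87 bases and a further core at 73, followed by the cAMP motif at 51. No searched motif is in the Pdk4 window, which says only that these letters are not there. A match likewise says only that the letters are there. Whether any match is a working hypoxia response element, or a site for another factor, was not tested.

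RefSeq promoters were matched for 38 of the 41 genes, all but Pgk1, Idh3a and Pc. The hypoxia core was in 12 of the 38 (31.6%), against 16.9% of 27457 rat promoters of the same length. Of those 12 genes 11 were lower and 1 higher in males, at a median difference of -0.047. The 26 without the core had 20 lower and 6 higher, with a median of -0.042. The differences ranged from -0.20 to 0.021 with the core and from -0.25 to 0.74 without it. The cAMP motif was in 3 member promoters (Ldha, Mdh2 and Ogdh; 1.7% of all promoters), and the forkhead motif in 2 (Pdhb and Pfkfb2; 3.25%). The motif of the estrogen-related receptors, regulators of mitochondrial genes (TNAAGGTCA), was in none of the 38 and in 1% of all promoters.

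The hexose steps run from glucose to the triose phosphates. All 8 of their genes were lower in males, at a median of -0.084, although with normexp background correction Hk2 and Pfkm changed sign. Hk1 encodes the main hexokinase of brain. Its signal was 66.8% of the 75th percentile (male) and 72.5% (female), a difference of -0.12 at a technical SD of 0.075. Hk2, the hexokinase of muscle and of growing cells, was near the background at 0.977% and 1.16%. Its difference of -0.25 was within its technical SD of 0.39, and with normexp it was 0.054.

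Phosphofructokinase has a liver, a muscle and a platelet form, all made in brain. Pfkl, the liver form, stood at 22.4% (male) and 25.5% (female), a difference of -0.18 at a technical SD of 0.11. Pfkm, the muscle form, stood at 598% and 613%, and Pfkp, the platelet form, at 1309% and 1331%. Their differences of -0.035 and -0.024 were within 1 technical SD of 0.063. So of the 3 probes the dimmest, that of Pfkl, had the widest gap, and in its range of signal 10.5% of genes were at least as far apart in that direction. Gpi, which interconverts the hexose phosphates, differed by -0.060, Aldoa, the aldolase of muscle and brain, by -0.077, and Tpi1, triose phosphate isomerase, by -0.091. The Tpi1 spot lay in a patch, a stretch of the slide defined by a spot's neighbours and not by its own difference. There, 2 or more of the closest 18 measured spots of different probes were at least 2-fold apart in the same direction.

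Pfkfb2 and Pfkfb3 encode bifunctional enzymes that make and remove the strongest activator of phosphofructokinase. Pfkfb3, the form known from astrocytes, was at 106% (male) and 121% (female). The difference of -0.19 was 2.97 technical SDs, and 1.46% of genes above the 75th percentile were at least as far apart in that direction. In the narrower signal bin of Pfkfb3 that share was 2.66%. A much dimmer second Pfkfb3 probe, for another transcript record, went the other way at 0.092, within its technical SD of 0.17. The pair of probes therefore disagree in sign, and the mean over both is -0.048. Pfkfb2, the heart form, was at 48.6% and 46.5%, a difference of 0.063. Its 3 dimmer probes were at -0.21, -0.020 and 0.016, so no direction is shared over its 4 probes.

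**Figure D3:**
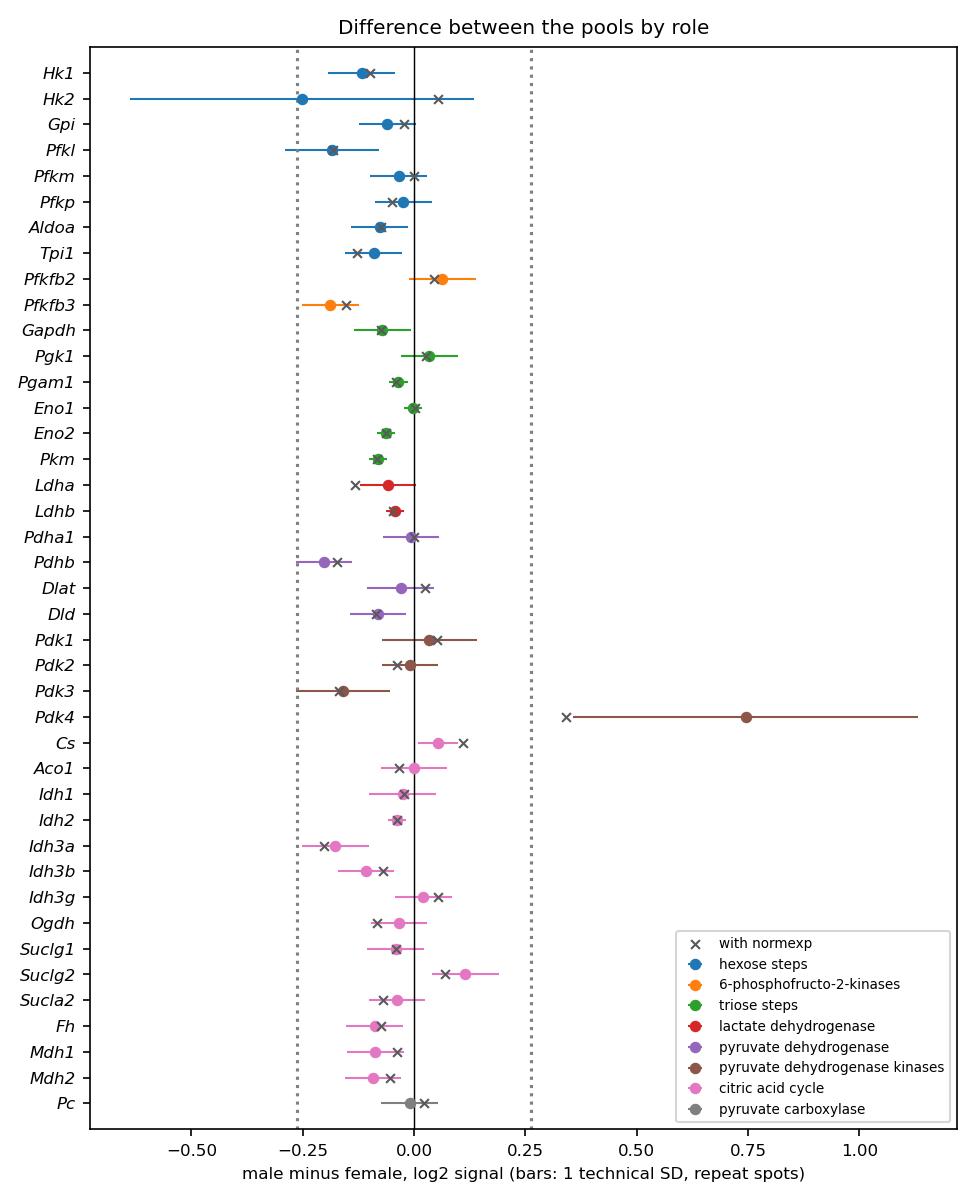
Male minus female log2 signal of each gene, coloured by role, with bars of 1 technical SD from repeat spots. Crosses are the values with normexp, and dotted lines mark 1.2-fold. Points lie mostly left of 0 and inside 1.2-fold; Pdk4 alone is outside, and its cross is at 0.34.

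The triose steps recover the energy of glycolysis as ATP. Of their 6 genes 5 were lower in males and 1 was higher. Their median was -0.050, and the signs of Pgk1 and Eno1 depended on the scaling. Gapdh, the dehydrogenase often used as a reference gene, was at 2085% (male) and 2190% (female), a difference of -0.071. It has 8 probes, of which 6 were lower in the male pool and 2 higher, over a range of -0.12 to 0.091. The Gapdh probes thus scatter on both sides of 0 by more than the technical SD of 0.063. Some of them could also bind near-identical gene copies, which was not tested.

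Pgk1, the first ATP-making step, was at 3094% and 3022%, a difference of 0.034 that was gone with median centring. Pgam1, phosphoglycerate mutase, was at 1057% (male) and 1083% (female) over 9 spots. The male array was lower on 8 of them, and the mean difference was -0.036. Eno1, the enolase found in most cells, was at 1093% and 1095%, a difference of -0.0029 over 10 spots. Its other 2 probes, on 10 and 9 spots, were at 0.012 and -0.020, so all 3 Eno1 probes were within 1 technical SD of 0.

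Eno2, the enolase of neurons, was at 765% (male) and 799% (female). The difference was -0.064 over 10 spots, with a technical SD of 0.020, and all 10 spots were lower on the male array, from -0.13 to -0.019. A second Eno2 probe was at -0.10. Pkm, pyruvate kinase, was at 446% and 472%, a difference of -0.081, again lower on all 10 spots, from -0.11 to -0.043. Its other 3 probes were also lower in the male pool, at -0.083, -0.085 and -0.24. Both genes were lower on every spot, as were 15.7% of all 1136 genes whose brightest probe is on 8 or more spots. All 6 of the 41 genes with such a brightest probe were lower in males on average over spots, against 38.7% of those 1136. Whether any of the Pkm probes separates the splice forms of the gene was not tested.

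**Figure D4:**
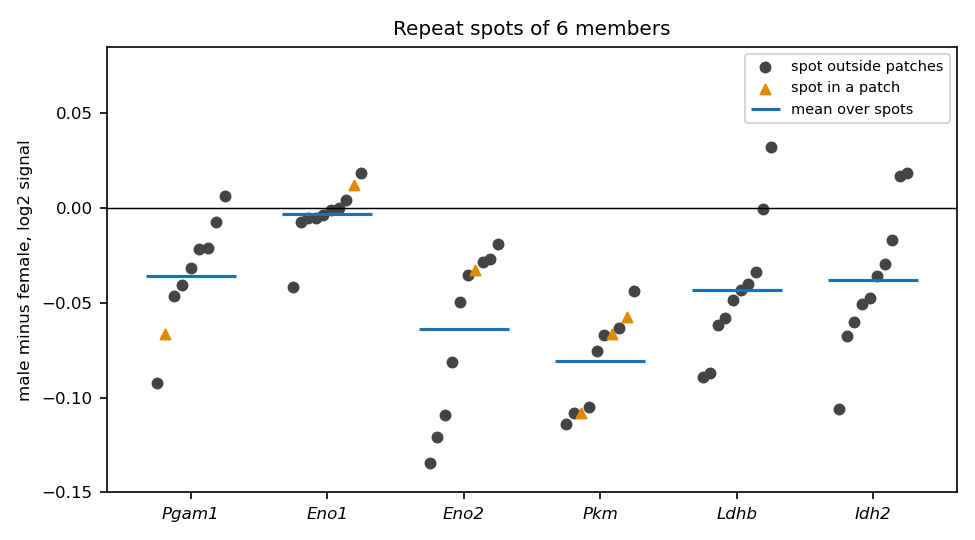
Male minus female log2 signal on each repeat spot of the 6 genes whose brightest probe is on 9 or 10 spots; bars are means, triangles are spots in patches. All spots of Eno2 and Pkm lie below 0, those of Pgam1, Ldhb and Idh2 mostly do, and those of Eno1 gather at 0.

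Lactate dehydrogenase converts pyruvate and lactate into each other, with Ldha favoured in cells that make lactate and Ldhb in cells that use it. Both were slightly lower in the male pool. Ldha was at 2089% (male) and 2175% (female), a difference of -0.058 at a technical SD of 0.063. Its 2 further probes were at -0.057 and, over 8 spots, at -0.075. Ldhb was at 1441% and 1484%, a difference of -0.043 over 10 spots, of which 9 were lower on the male array. The ranges of single spots overlapped between the arrays, from 1356% to 1576% in the male pool and from 1388% to 1541% in the female pool. With normexp Ldha was at -0.13 and Ldhb at -0.048.

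Pyruvate dehydrogenase is built from a decarboxylase of alpha and beta subunits (Pdha1, Pdhb), an acetyltransferase (Dlat) and a lipoamide dehydrogenase (Dld). All 4 genes were lower in males and their median was -0.056, but Pdha1 changed sign with quantile normalization and, at 0.18, with the mean over probes, and Dlat with normexp. The median was -0.030 without spots in patches and -0.090 with median centring. Pdhb was at 133% (male) and 153% (female). The difference of -0.20, or 1.15-fold, was 3.20 technical SDs on a single spot outside patches, and only 0.941% of genes above the 75th percentile were at least as far apart in that direction. Pdha1, its partner in the same enzyme, was level at 238% and 239%, a difference of -0.0074. Dim further Pdha1 probes were at 0.045 and, on a spot in a patch, at 0.51. Dlat was at -0.030 with a second probe at 0.024, and Dld, whose spot lay in a patch, was at -0.081. Among the 4 subunits the gap was therefore widest for Pdhb.

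The pyruvate dehydrogenase kinases turn the complex off. Their differences went both ways, with 2 of 4 higher in the male pool, and their median of 0.013 changed sign with median centring. Pdk4, which is induced by fasting and glucocorticoids, was at 1.63% (male) and 0.975% (female). That is 1.68-fold, or a log2 difference of 0.74, the widest of the 41, on 1 spot outside patches. It lies near the background, where the technical SD is 0.39, so it amounts to 1.93 technical SDs. At that brightness 2.16% of genes were at least as far apart in that direction. In the narrower signal bin of Pdk4, 97.3% of genes were at or below its value. With normexp the difference was 0.34.

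Pdk2, the widely expressed kinase, was level at 178% and 179%. Pdk1, a target of the hypoxia-inducible factor, was at 22.2% and 21.7%, and its 4 probes lay between 0.0097 and 0.034, all within their technical SD. Pdk3 was at 13.4% (male) and 15.0% (female), a difference of -0.16 at a technical SD of 0.11. The 4 kinases thus ran from -0.16 to 0.74.

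In the citric acid cycle 10 of 14 genes were lower in males and 4 higher, at a median of -0.038. Cs, citrate synthase, which opens the cycle, was at 136% and 131%, a difference of 0.053 on 2 spots of which 1 was lower and 1 higher, and 0.11 with normexp. Aco1, the cytosolic aconitase that also senses iron, was level at 60.3% in both pools.

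Isocitrate dehydrogenase comes as a mitochondrial NAD enzyme of alpha, beta and gamma subunits and as separate NADP enzymes. Idh3a, the catalytic alpha subunit, was at 54.0% (male) and 61.0% (female). Its difference of -0.18 was 2.36 technical SDs, and 5.96% of genes of its brightness were at least as far apart in that direction. Idh3b, the beta subunit, was at 173% and 186%, a difference of -0.11 on a spot in a patch. Idh3g, the gamma subunit, was at 898% and 885%, a difference of 0.021 on a spot in a patch. Its sign changed with median centring and quantile normalization. The 3 subunits of the one enzyme thus ran from -0.18 to 0.021. The NADP enzymes were near 0, with the cytosolic Idh1 at -0.026 and the mitochondrial Idh2 at -0.038 over 10 spots, 8 of them lower on the male array.

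Ogdh, the first subunit of the oxoglutarate dehydrogenase complex, was at 120% and 123%, a difference of -0.033 on a spot in a patch, and -0.084 with normexp. Suclg2, the GTP-specific subunit of succinate-CoA ligase, was at 79.8% (male) and 73.7% (female). Its difference of 0.11 was 1.54 technical SDs and, after Pdk4, the widest towards the male pool, although with normexp it was 0.070, below that of Cs. Its ATP-specific counterpart Sucla2 was at -0.039 and their shared partner Suclg1 at -0.041, each within 1 technical SD. The 2 alternative subunits of this ligase therefore differed in sign, each by less than 2 technical SD. Fh, fumarase, was at -0.089, and the malate dehydrogenases Mdh1 of the cytosol and Mdh2 of the mitochondrion were at -0.087 and -0.093, with Fh and Mdh2 on spots in patches. Pc, pyruvate carboxylase, an enzyme of astrocytes that refills the cycle, was level at 175% and 176%, a difference of -0.0098.

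Females carry a second X chromosome, and 4 of the 41 genes are X-linked. These are Pgk1 at 0.034, Idh3g at 0.021, Pdha1 at -0.0074 and Pdk3 at -0.16. Only Pdk3 was beyond 1 technical SD, and all 4 lay inside the range of the other genes.

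Other genes of the same chemistry were listed by function. Of 40 further enzymes of glycolysis, glucose synthesis and the citric acid cycle, 27 were well above background in both pools, with 15 higher in males and 12 lower. The median of 0.012 took the opposite sign with median centring and when probes were averaged. Eno4, an enolase of sperm, was at 2.50% (male) and 2.01% (female), a difference of 0.32 on a dim spot. The second Eno4 probe was at -0.56. Further subunits of citric acid cycle enzymes were close to 0, with Dlst of the oxoglutarate complex at -0.072 and the 4 succinate dehydrogenase genes Sdha to Sdhd between -0.048 and 0.045. Aldoc, the aldolase of astrocytes and Purkinje cells, was at 7635% (male) and 7352% (female). That difference of 0.054 over 10 spots was of opposite sign to the -0.077 of Aldoa.

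Transporters and shuttles of glucose, lactate and reducing power were higher in males for 6 of 17 genes and lower for 11. Their median was -0.042, and 0.0078 with normexp. Slc16a7, the high-affinity monocarboxylate transporter through which neurons take up lactate, was at 9.21% (male) and 12.5% (female). Its difference of -0.44, or 1.36-fold, was on 1 spot in a patch and was -0.26 with normexp. Gpd1, cytosolic glycerol phosphate dehydrogenase, was at 409% and 504%, a difference of -0.30 over 2 spots outside patches, and -0.30 with normexp. The glial lactate transporter gene Slc16a1 was at 0.16 and the neuronal glucose transporter gene Slc2a3 at -0.11 over 10 spots, with a dimmer second probe at -1.76. The blood-brain barrier glucose transporter gene Slc2a1 was at -0.042.

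In the pentose phosphate list 5 of 8 genes were higher in males, and the median was 0.027, which changed sign with median centring. H6pd, a dehydrogenase of the endoplasmic reticulum, was near the background at 2.48% (male) and 2.73% (female). Its difference of -0.14 was within its technical SD of 0.17. Rpia, ribose phosphate isomerase, was at -0.13 over 10 spots, at a technical SD of 0.033. Of 12 glycogen genes 9 were lower in males, at a median of -0.021. Pygl, the liver phosphorylase, was at 0.23 and Pgm1, phosphoglucomutase, at -0.095. Among hypoxia-related genes outside the pathway 8 of 14 were higher in males, at a median of 0.025 that changed sign with median centring and quantile normalization. The 8 include genes of the hypoxia-inducible factor itself, Hif1a at 0.033, Epas1 at 0.042 and Arnt at 0.038. Each was within 1 technical SD, which was 0.063, 0.11 and 0.17, and Arnt was dim at 2.78% (male) and 2.71% (female). Adm, which encodes the vessel-dilating peptide adrenomedullin, was at 0.33 over 10 spots, and Ddit4, an inhibitor of growth signalling, was at 0.27. None of these 5 lists had a gene 2-fold apart.

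Cell type markers differed between the pools alongside these values, and their part in the results was not tested. In bulk RNA, fewer cells of a type cannot be told apart from less RNA per cell. Of 17 neuronal markers, which include Eno2, 15 were lower in males, at a median of -0.057 and summed signals of 5816% (male) and 6159% (female). Of the 18 hypothalamic markers measured in both pools 13 were lower in males, at a median of -0.10, with 6 at least 1.2-fold lower and 1 at least 1.2-fold higher. Kiss1, which encodes the reproductive peptide kisspeptin, was 2.32-fold lower in males, at 1.12% against 2.61%, a log2 difference of -1.22 that was -0.41 with normexp. Of 15 oligodendrocyte markers 14 were higher, with sums of 19314% (male) and 17859% (female), of which Mbp alone gave 10228% and 9679%. Of 13 astrocyte and tanycyte markers, which include Aldoc, 10 were higher, with sums of 13374% (male) and 12691% (female). Aldoc alone gave 7635% and 7352% of these. Microglial markers had 10 of 12 higher, and endothelial and mural markers 10 of 13. All 12 meningeal markers were higher in males, at a median of 1.25 and sums of 528% (male) and 213% (female). Red blood cell markers were higher for 6 of 7 (median 0.84), choroid plexus and ependymal markers for 5 of 6 (0.24) and pituitary markers for 4 of 5 (0.35). The pituitary markers ran far in both directions. Cga was 4.08-fold higher in males, and Tshb, near the background in the female pool at 0.986%, was 12.4-fold higher. Prl, well above background only in the female pool and so not counted, was at least 7.91-fold lower in males. With normexp the log2 difference went from 2.03 to 1.84 for Cga and from 3.64 to 1.80 for Tshb. The bound for Prl went from -2.98 to -1.22, so its fold depends on the background correction. The Cga and Prl spots lay in patches. Among the neuronal, glial, vascular and meningeal markers, all but the tanycyte gene Rax were well above background in both pools. The median of the 41 genes, at -0.041, lay on the same side of 0 as those of the neuronal and hypothalamic markers and on the other side from those of the glial, vascular and meningeal lists.

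**Figure D5:**
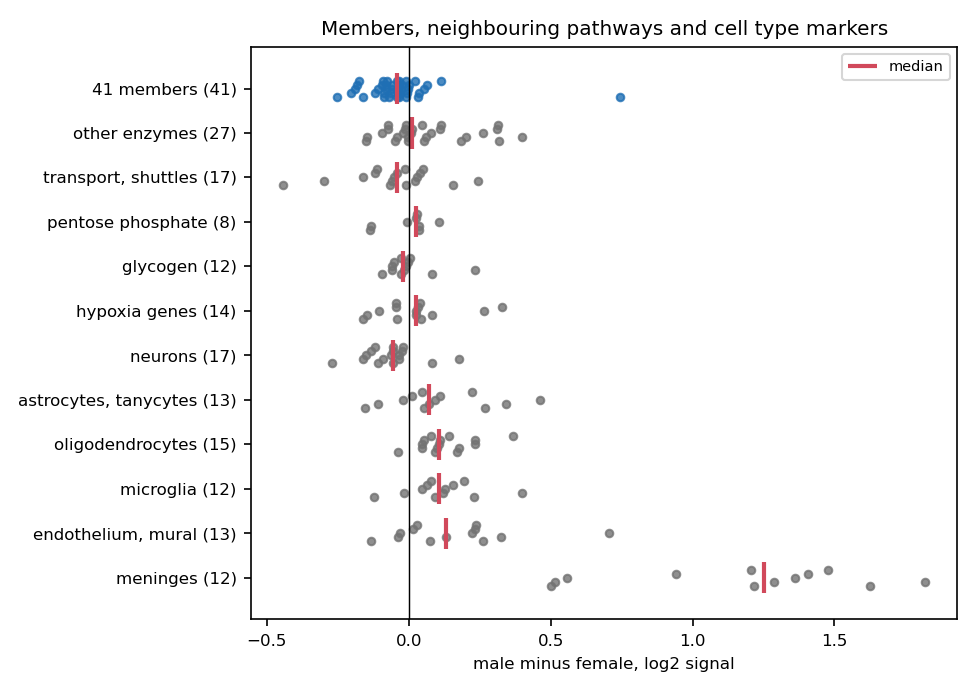
Male minus female log2 signal of each gene measured in both pools (points) and the median of each list (bars), for the 41 genes, 5 lists of neighbouring pathways and 6 lists of cell type markers, with the number of genes in brackets. The medians of the 41 genes and of the neuronal markers, at -0.041 and -0.057, are left of 0, and the meningeal median is at 1.25.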

How the data were processed

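RNA of the male and female pools, grouped by the labelled sex, was measured on 1 array each. Per the file headers, the deposited array files hold the intensity of each spot, background-subtracted by Feature Extraction 11.5.1.1 (design build rn4) and not scaled between arrays; the submitters' processing notes name version 9.1. The series matrix intensity values deposited by the authors equalled 100 times the processed signal over the array's 75th percentile, within 0.997 to 1.003 times for the male array, and served as an alternative.

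The 664 spots that the software marked as outliers in either file were dropped, and no spot was saturated. Each array's 75th percentile was subtracted from its log2 signals, which were averaged per probe. Over 50% of a probe's spots had to be well above background for the probe to count so. RefSeq accessions were matched to symbols of GRCr8 (46.3% of 45591 probes), and the brightest probe per gene was used. The steps were run in Python 3.11.15 and limma 3.58.1 and tested on simulated data. Thresholds were 2-fold and 1.2-fold. Genes past 1.2-fold, the 2 widest per role and a set of key enzymes were given in full, and from each list the genes past 2-fold or else the 2 widest. Some named by this rule are not reported here. Adding others was allowed; motifs and promoters were chosen after the differences were seen. The members and lists were chosen with earlier results of these data known. The files hold no column of mean spot signal, so normexp (offset 50) used spot and background medians. Alternatives were median centring, quantile normalization, normexp, the mean over probes, leaving out spots in patches, keeping flagged spots, and the series matrix values. The number of arrays limits the precision.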

Additional observations from a re-analysis of the deposited data

How the results depend on the processing

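No paired analysis was possible because each sex had 1 pool. Over the alternatives, 29 to 36 of the 41 genes were lower in the male pool, or 27 of 34 without spots in patches. Of the 41, 31 kept their sign over the 5 scalings and background corrections, 26 lower and 5 higher. Among these 5 are the main scaling and the series matrix values, which nearly repeat it. The number at least 1.2-fold lower went from 0 to 1 with median centring and with quantile normalization, the gene being Hk2, and the number higher by any amount from 8 to 5 with median centring. With median centring, which moved the median of all genes from -0.016 to -0.050, the median became -0.076 for the 41 genes, -0.118 for the hexose steps, -0.084 for the triose steps, -0.090 for pyruvate dehydrogenase, -0.073 for the citric acid cycle, -0.021 for the kinases, -0.022 for the other enzymes, -0.077 for transporters, -0.0075 for pentose phosphate, -0.055 for glycogen and -0.0093 for hypoxia genes. With quantile normalization it was -0.056 for the 41 genes, -0.065 for the triose steps, -0.043 for glycogen and -0.010 for hypoxia genes. With normexp it was 0.041 for the other enzymes, 0.0078 for transporters, 0.011 for pentose phosphate and -0.0063 for glycogen. The mean over probes gave -0.039 for the triose steps and -0.0038 for the other enzymes, and leaving out patches -0.013 for transporters and -0.030 for pyruvate dehydrogenase. A mean in place of the median gave -0.037 for the triose steps and 0.15 for the kinases, the last through Pdk4. Median centring subtracts a different constant from each array, so it moved every gene by the same amount. Causes of the other shifts were not tested. Signal near background limits Pdk4 and Hk2.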

Other observations

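A few genes outside the pathway lists' widest values may merit a second look, and were chosen after their values were seen. Me1, the cytosolic malic enzyme that makes NADPH for lipid synthesis, was at 351% (male) and 309% (female), a difference of 0.18 at a technical SD of 0.063, and 0.23 with normexp. Adpgk, an ADP-dependent glucokinase of the endoplasmic reticulum, was at 126% and 105%, a difference of 0.26, and 0.24 with normexp. Both are single spots outside patches, and the Adpgk difference is wider than that of any of the 29 genes of the pathway above the 75th percentile. Vegfa, the vascular growth factor gene, was at 172% and 191% over 2 spots, a difference of -0.15 with its other 2 probes at -0.10 and 0.11, while Adm and Ddit4 of the same hypoxia list were higher in the male pool.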
